A study of Mus musculus with 35 samples.

Results

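The 38 genes described here are those of antigen presentation and of the interferon response, and they were taken as the probe sets (called transcripts here) that name exactly 1 gene of a fixed list. The list holds 9 genes of class I presentation, 5 of class II presentation, 4 interferon receptor chains, 6 transcription factors of the interferon pathway and 14 genes that interferon induces. Of the 38 genes, 35 had at least 1 transcript of their own (74 transcripts in all), out of 18194 genes named alone on the array. The other 3 had none, namely H2-T23 and Isg15, whose probe sets also name other genes, and Ifi44. A filter on dim and invariant values kept 54 of the 74 transcripts, of 31 genes, and the 4 genes measured but not kept were H2-Ab1, H2-Eb1, Ciita and Oasl2. No transcript was kept through arrays of 1 group alone.

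Motoneurons were cut by laser from the lumbar spinal cord of 35 female mice, 300 cells a mouse, and each array holds the amplified RNA of 1 mouse. The SOD1 mice are of the strain B6.Cg-Tg(SOD1-G93A)1Gur/J, a model of amyotrophic lateral sclerosis in which a mutant human SOD1 transgene, present in many copies, is active throughout the body and not in motoneurons alone, and the WT mice are C57BL/6J. At week 11, before motor signs, 8 untreated SOD1 and 6 WT mice were analysed. At week 15, with motor signs, there were 7 SOD1 mice on vehicle, 7 SOD1 mice on G-CSF (granulocyte colony-stimulating factor, a blood cell growth factor) and 7 WT mice, and in both SOD1 groups the agent had come from an implanted pump since week 11. The week 15 WT mice are shared by both comparisons with SOD1, and the vehicle group by the comparisons with WT and with G-CSF. Values are log2 expression after GCRMA normalization, so 1 unit is a 2-fold step. The brightness of a probe set depends on its probes, so levels are compared between mice, not between genes.

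Class I molecules show peptides made inside a cell to CD8 T cells and are found on most cells, but textbook accounts give low amounts on resting neurons. A class I molecule pairs a heavy chain (in C57BL/6 mice H2-K1, H2-D1 and the less polymorphic H2-M3 and H2-T23) with B2m, and is loaded in the endoplasmic reticulum from peptides that Tap1 and Tap2 import, Erap1 trims and Tapbp helps to fit. Class II molecules (H2-Aa, H2-Ab1, H2-Eb1) show taken-up proteins to CD4 T cells, travel with the invariant chain Cd74, depend on the coactivator Ciita and belong to microglia, dendritic cells and B cells. Type I interferons bind Ifnar1 and Ifnar2 and interferon gamma binds Ifngr1 and Ifngr2, and the signal runs through STAT proteins, Irf9 and other Irf factors to induced genes such as Rsad2, Ifit1 and Ifit3.

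The induced genes are known for a promoter element, the interferon-stimulated response element, whose core was searched as GAAANNGAAA on both strands of the RefSeq promoters of build GRCm38.p6 (250 bases before to 50 bases after the start of each gene). Of the 38 genes, 32 had a promoter in the RefSeq table, and 12 of these held at least 1 match, against 3.44% of all 32851 promoters. Among the induced genes, 8 of 12 held a match (Ifit1, Ifit3, Ifitm2, Ifitm3, Isg15, Rsad2, Gbp2 and Bst2). In class I it was 3 of 8 (B2m, H2-T23 and Erap1), among the transcription factors 1 of 6 (Stat2), and in the receptors and class II none of the 4 and 2 promoters searched. The palindromic core TTCNNNGAA of the interferon gamma element was found in 9 of the 32 genes, against 8.3% of all promoters. A match is a string of letters and not a shown binding site, and the 2 motifs can overlap. The promoters of B2m, H2-D1, Rsad2, Ifit3 and Gbp2 are printed because these genes carry the results below, with matches to GAAANNGAAA on either strand in capitals. They lie at chr2:122147437-122147736 (plus strand), chr17:35262844-35263143 (plus), chr12:26456403-26456702 (minus), chr19:34583279-34583578 (plus) and chr3:142620413-142620712 (plus).
B2m: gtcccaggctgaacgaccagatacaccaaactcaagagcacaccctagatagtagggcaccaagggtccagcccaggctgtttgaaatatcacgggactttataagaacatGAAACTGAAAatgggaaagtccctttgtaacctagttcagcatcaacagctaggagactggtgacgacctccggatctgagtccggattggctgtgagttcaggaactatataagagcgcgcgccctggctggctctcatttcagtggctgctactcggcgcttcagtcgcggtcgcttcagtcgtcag
H2-D1: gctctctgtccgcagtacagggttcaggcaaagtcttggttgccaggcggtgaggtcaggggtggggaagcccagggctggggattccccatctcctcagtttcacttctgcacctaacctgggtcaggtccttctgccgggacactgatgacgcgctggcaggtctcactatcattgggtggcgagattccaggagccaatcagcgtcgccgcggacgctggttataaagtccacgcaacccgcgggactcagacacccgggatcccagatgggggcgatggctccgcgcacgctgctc
Rsad2: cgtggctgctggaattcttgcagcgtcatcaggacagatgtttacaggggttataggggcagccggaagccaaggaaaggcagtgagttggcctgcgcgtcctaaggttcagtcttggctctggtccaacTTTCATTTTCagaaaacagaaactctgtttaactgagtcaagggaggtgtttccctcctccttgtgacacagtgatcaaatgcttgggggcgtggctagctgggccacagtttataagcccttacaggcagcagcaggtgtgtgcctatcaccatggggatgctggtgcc
Ifit3: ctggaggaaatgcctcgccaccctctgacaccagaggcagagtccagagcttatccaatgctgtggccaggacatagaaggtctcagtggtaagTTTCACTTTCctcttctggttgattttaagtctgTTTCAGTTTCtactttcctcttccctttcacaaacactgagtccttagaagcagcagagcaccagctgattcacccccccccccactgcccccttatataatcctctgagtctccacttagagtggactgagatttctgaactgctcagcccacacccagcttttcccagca
Gbp2: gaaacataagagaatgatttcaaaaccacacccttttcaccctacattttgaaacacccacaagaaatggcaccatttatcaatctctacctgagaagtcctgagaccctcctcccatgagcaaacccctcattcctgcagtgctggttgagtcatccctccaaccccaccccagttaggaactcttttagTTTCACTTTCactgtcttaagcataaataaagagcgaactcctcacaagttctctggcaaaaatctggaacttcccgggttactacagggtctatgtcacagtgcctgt
In these windows the match of B2m starts 139 bases before the gene start, that of Rsad2 120, that of Gbp2 59 and those of Ifit3 156 and 122 bases before it. The window of H2-D1 has none, but a search for this exact string misses variants of the element, so its absence is not shown.

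The neuron markers were bright on the arrays (mean over 11 genes from 10.01 to 10.73 in the 5 groups), and of 10 motoneuron markers 9 lay over the array median on average, with Chodl at 9.96, Prph at 9.28 and Isl1 at 7.90. The tenth, Chat, which makes acetylcholine, read 3.17 (2.49 to 5.00). The motoneuron list averaged 6.63 in WT and 6.78 in SOD1 mice of week 11, and 6.81 in WT, 6.14 on vehicle and 6.22 on G-CSF at week 15. Other cells were measured too. All 12 astrocyte markers and all 9 oligodendrocyte markers lay over the array median on average, as did 13 of 19 microglia and macrophage markers, with Aif1 and Itgam at or under the 20th centile of all values (2.40). The microglia list averaged 3.54 (range 3.31 to 3.75) in WT mice of week 15, 4.40 (3.79 to 5.07) on vehicle and 4.25 (3.48 to 5.44) on G-CSF. Of 11 lymphocyte markers, 3 lay over the median and Cd3g, Cd8b1 and Cd2 at or under the 20th centile, and the list stayed between 2.72 and 3.09 in every mouse. The 18S ribosomal RNA control read 10.12 ± 0.68 (SD, n = 6) in WT mice of week 11 and 13.13 ± 0.26 (n = 7) in WT mice of week 15, so week, cohort and RNA composition cannot be told apart. The array of WT mouse 6 of week 11 stood apart from its group, as did those of vehicle mice 3 and 5.

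Each role had at least 1 gene that lay over the array median in every mouse. The most abundant transcripts of B2m, H2-D1, H2-K1, H2-M3, Tap2 and Tapbp lay over their array's median in all 35 mice, as did those of the receptors Ifngr1, Ifngr2 and Ifnar1, the factors Irf1 and Irf3, the induced gene Ifi27 and, in class II, H2-Eb1. B2m, the light chain of every class I molecule, averaged 8.25 (6.27 to 9.75 over all mice), H2-D1 6.85 (5.28 to 8.90) and H2-K1 6.69 (5.23 to 8.47). Tap1 averaged 3.12 and Erap1 2.92, under the median of most arrays. In class II, H2-Aa averaged 3.43 and lay over the median in 23 mice, Cd74 3.67 in 32 mice, Ciita 2.88 in 2 mice and H2-Ab1 2.64 in 1 mouse. Among the induced genes Ifi27, a mitochondrial protein, averaged 9.60, while Ifitm2 (2.49), an entry blocker of viruses, and Oasl2 (2.23), of the oligoadenylate synthetase family, lay over the median in no mouse. In these pooled cells, fewer cells of a type and less RNA per cell cannot be told apart.

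**Figure D1:**
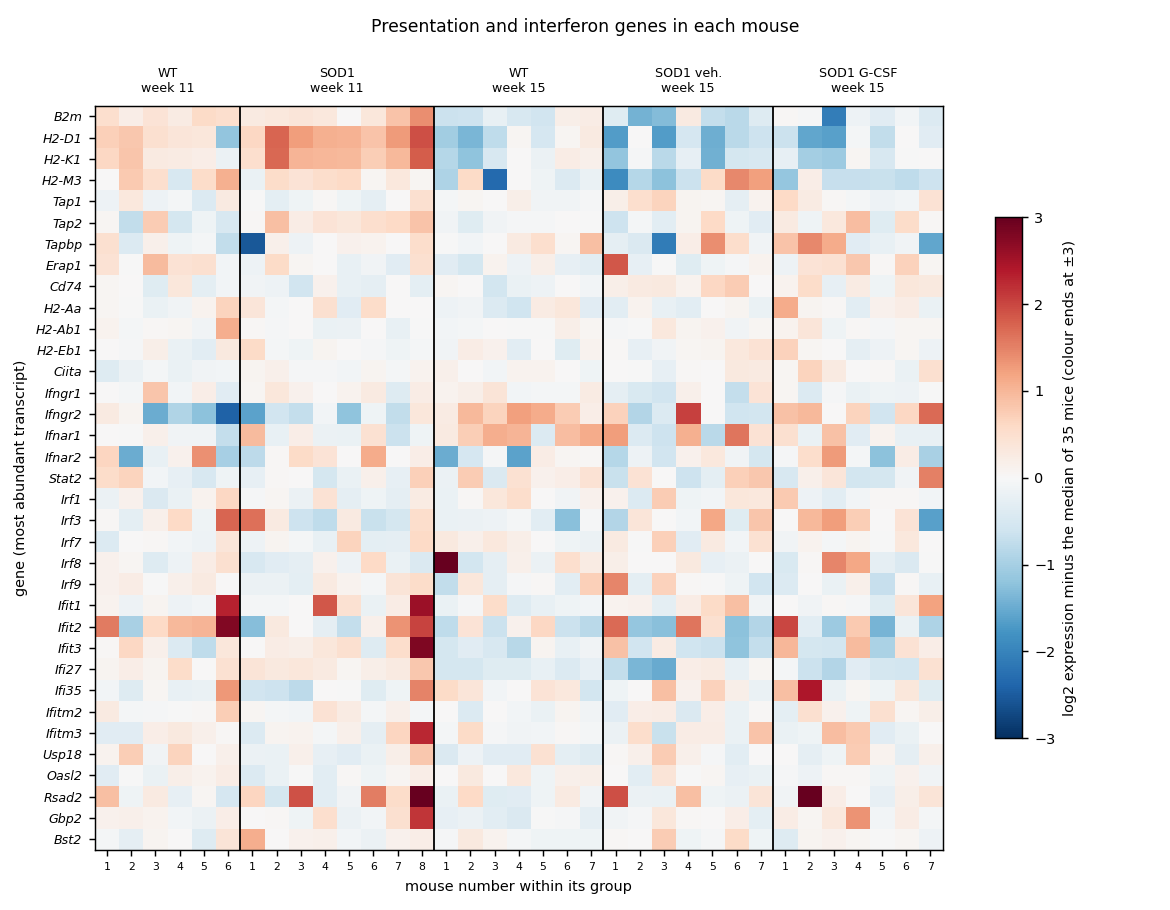
Log2 expression of the most abundant transcript of each of the 35 measured genes (rows) in each of the 35 mice (columns, by group), shown as the difference from the median of all mice. H2-D1 and H2-K1 are highest in SOD1 mice of week 11, and mouse 8 of that group carries the highest values of Rsad2, Ifit1, Ifit3, Ifitm3 and Gbp2.

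Before motor signs, at week 11, the most abundant transcripts of the class I heavy chains H2-D1 and H2-K1 read higher in SOD1 than in WT motoneurons, while that of H2-M3, another heavy chain, differed by -0.11, and no transcript of the 38 genes passed the test. Of the 54 transcripts tested, 0 were called (limma, with an unadjusted p under 0.05, an adjusted p under 0.1 and at least a 1.5-fold change), against 1.32% of all 31352. Tukey's comparison called 0 too, with its p adjusted again over all transcripts, here and below. The study names this test but may have adjusted otherwise, so the count is not the study's own. Before that adjustment, Tukey's p was 0.0492 and 0.0184 for H2-D1 transcripts 1 and 2, 0.0434 for H2-K1 transcript 1 and 0.0208 for Tap2. With array weights, which give less weight to noisier arrays, 5 of the 54 were called, against 3.55% of all. All 5 were higher, namely H2-D1 transcripts 1, 2 and 3, H2-K1 transcript 1 and Tap2. At an unadjusted p under 0.05 there were 7 of 54, against 11.0% of all, and 4 of the 7 were of H2-D1.

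H2-D1 transcript 1 (the most abundant of its 9, probe set 1425545_x_at) had a lowest, median and highest value of 5.78, 7.37 and 7.76 in WT mice and of 7.58, 8.11 and 8.90 in SOD1 mice. The groups overlapped by 1 mouse, since 7 of 8 SOD1 mice lay over every WT mouse. The mean difference was 0.97 (SE 0.32, 95% interval 0.31 to 1.63, 1.96-fold), with an adjusted p of 0.18 in limma. It fell to 0.69 (adjusted p = 0.542, limma) without WT mouse 6, whose value was 5.78 when the other WT mice lay between 7.29 and 7.76.

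Other probe sets of H2-D1 moved the same way. Transcript 2 differed by 1.14 (SE 0.33, limma adjusted p = 0.106), transcript 3 by 0.77 (adjusted p = 0.186) and transcript 4 by 0.74 (adjusted p = 0.1), while over all 9 the difference ranged from -0.22 to 1.14. Of the 9, 7 carry the suffix that marks probes matching further sequences, as do all 4 of H2-K1, and class I genes are near-identical in places, so signal from one heavy chain can enter the other's value. H2-K1 transcript 1 (1451931_x_at), with 6.49, 6.92 and 7.50 in WT and 7.17, 7.65 and 8.47 in SOD1 mice, differed by 0.76 (SE 0.25, limma adjusted p = 0.179), and 6 of 8 SOD1 mice lay over all WT mice. Tap2, a subunit of the peptide pump, differed by 0.66 (SE 0.20, limma adjusted p = 0.136), and its groups overlapped more, with 2 of 8 SOD1 mice over all WT mice.

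The light chain and tapasin were not called either. B2m transcript 1 had 8.56, 8.80 and 8.92 in WT and 8.35, 8.69 and 9.75 in SOD1 mice, a difference of 0.08 (95% interval -0.46 to 0.63). The groups overlapped, with 2 SOD1 mice over and 1 under all WT mice. B2m transcript 2 had 7.43, 7.54 and 7.88 in WT and 7.11, 7.90 and 9.19 in SOD1 mice, a difference of 0.33 (-0.33 to 0.99), with 5 of 8 SOD1 mice over and 2 under all WT mice. Tapbp, tapasin, which holds empty class I molecules at the peptide pump, differed by -0.11 (-0.99 to 0.78). The median over the 8 measured class I genes was 0.03, over the 5 of class II 0.04, over the receptors 0.22, over the transcription factors -0.07 and over the 12 induced genes 0.16, beside -0.01 over all genes. The 95% interval of the difference stayed within 2-fold either way for 36 of the 54 transcripts (66.7%, against 74.2% of all), so for the other 18 a 2-fold difference lay inside the interval. Of the marker lists, the microglia list averaged 3.82 in WT and 3.96 in SOD1 mice and the astrocyte list 6.81 and 7.08. Gfap, the filament protein of reactive astrocytes, was 2.14 higher (limma adjusted p = 0.0705). Uchl1 (1.16, limma adjusted p = 0.00456) and Eno2 (1.09, 0.0168) of neurons and Ache of motoneurons (1.31, 0.0473) were called higher too. The part of these markers in the class I values was not tested.

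**Figure D2:**
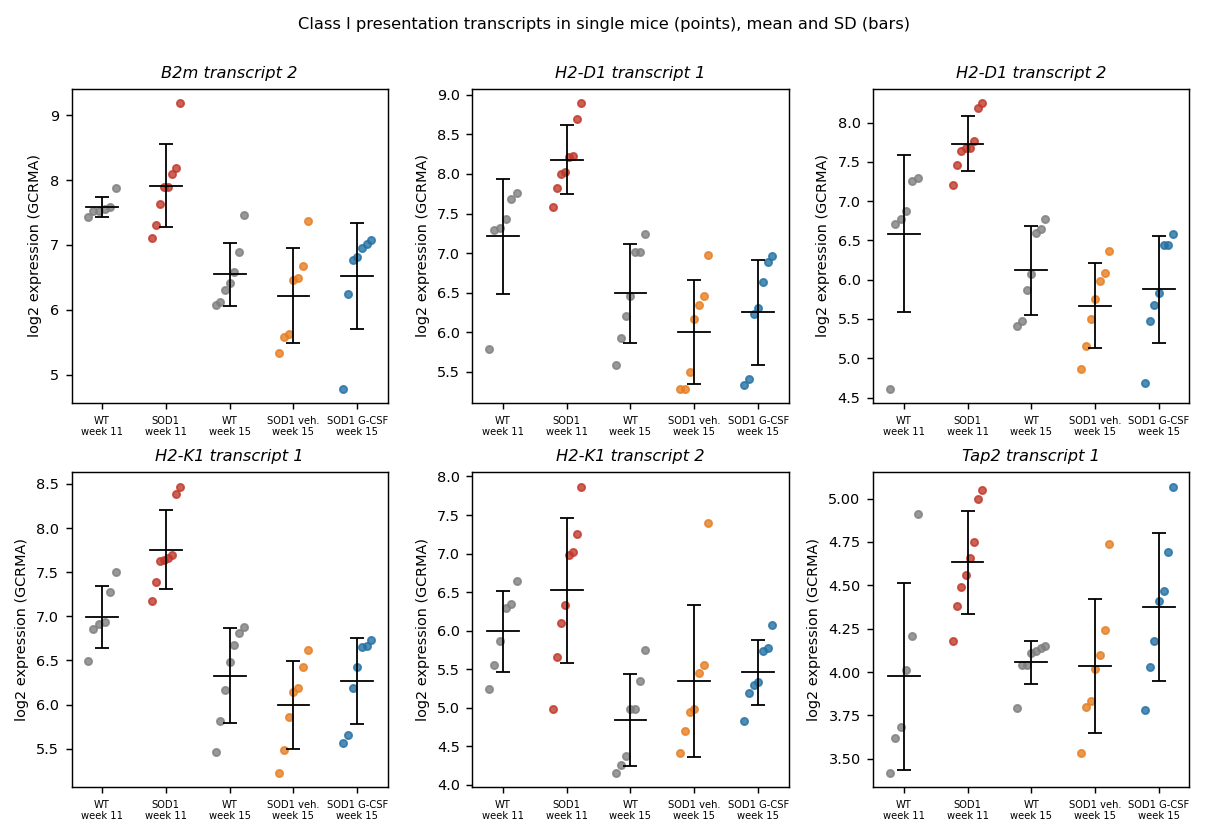
Log2 expression of 6 class I transcripts in single mice (points) of the 5 groups, with the group mean and SD (bars). H2-D1 and H2-K1 transcript 1 are highest in SOD1 mice of week 11, WT mouse 6 of week 11 lies alone at 5.78 for H2-D1 transcript 1, and the 3 groups of week 15 overlap.

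With motor signs, at week 15, no transcript of the 38 genes passed the test between vehicle-treated SOD1 and WT motoneurons. Of the 54 transcripts, 0 were called, against 5.91% of all transcripts, and 4 of 54 had an unadjusted p under 0.05, against 19.5% of all. Tukey's comparison called 0. The transcript with the lowest adjusted p was that of Cd74, the invariant chain of class II. Its lowest, median and highest values were 3.09, 3.57 and 3.70 in WT and 3.67, 3.92 and 4.40 on vehicle, so 6 of 7 vehicle-treated mice lay over all WT mice. The difference was 0.45 (SE 0.14, 95% interval 0.17 to 0.74), with an adjusted p of 0.0635 in limma but a fold change of 1.37, under the minimum of 1.5. The microglia list was also higher, at 4.40 against 3.54, and 7 of its 17 genes tested were called. Among them were Tyrobp (a microglial adaptor, 2.82 higher, limma adjusted p = 0.00741), Ctss (cathepsin S, 1.89, 0.00208) and C1qb (a complement subunit, 2.72, 0.00208). Gfap of astrocytes was called higher too (3.70, limma adjusted p = 0.0003). Markers called lower were Rbfox3, Map2 and Nefm of neurons, Chodl and Mmp9 of motoneurons, Mobp of oligodendrocytes and Itm2a of endothelial cells. The part of these markers in the Cd74 and class I values was not tested.

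The class II chains themselves differed less. H2-Eb1, the beta chain of I-E, had 4.36, 4.72 and 4.94 in WT and 4.47, 4.79 and 5.16 on vehicle, and H2-Aa, the alpha chain of I-A, differed by 0.03, with overlapping groups for both. H2-Eb1, H2-Ab1 and Ciita did not pass the filter and were not tested in the main fit.

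The probe sets of the class I heavy chains differed in direction on vehicle, and none was called. H2-D1 transcript 1 had 5.58, 6.46 and 7.24 in WT and 5.28, 6.16 and 6.97 on vehicle, a difference of -0.49 with overlapping groups. H2-K1 transcript 1 had 5.46, 6.48 and 6.88 in WT and 5.23, 6.14 and 6.62 on vehicle, a difference of -0.34. Other probe sets read higher on vehicle, with H2-D1 transcript 3 at 0.68 (limma adjusted p = 0.125), H2-K1 transcript 2 at 0.51 (0.479), H2-K1 transcript 4 at 0.18 (0.734) and H2-M3 at 0.29 (0.725). The median difference over class I was -0.18 (genes from -0.49 to 0.36), over the receptors -0.31, over the transcription factors 0.05 and over the induced genes 0.11, beside 0.04 over all genes. Ifi27 had 9.20, 9.36 and 9.50 in WT and 8.21, 9.50 and 9.97 on vehicle, a wider spread on vehicle. Irf1, a factor that interferon gamma induces, had 5.98, 6.20 and 6.70 in WT and 5.75, 6.30 and 6.92 on vehicle, and Irf3, which turns on interferon beta, 5.14, 6.23 and 6.36 and 5.52, 6.40 and 7.57. For 38 of the 54 transcripts the 95% interval stayed within 2-fold either way (70.4%, against 68.8% of all).

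**Figure D3:**
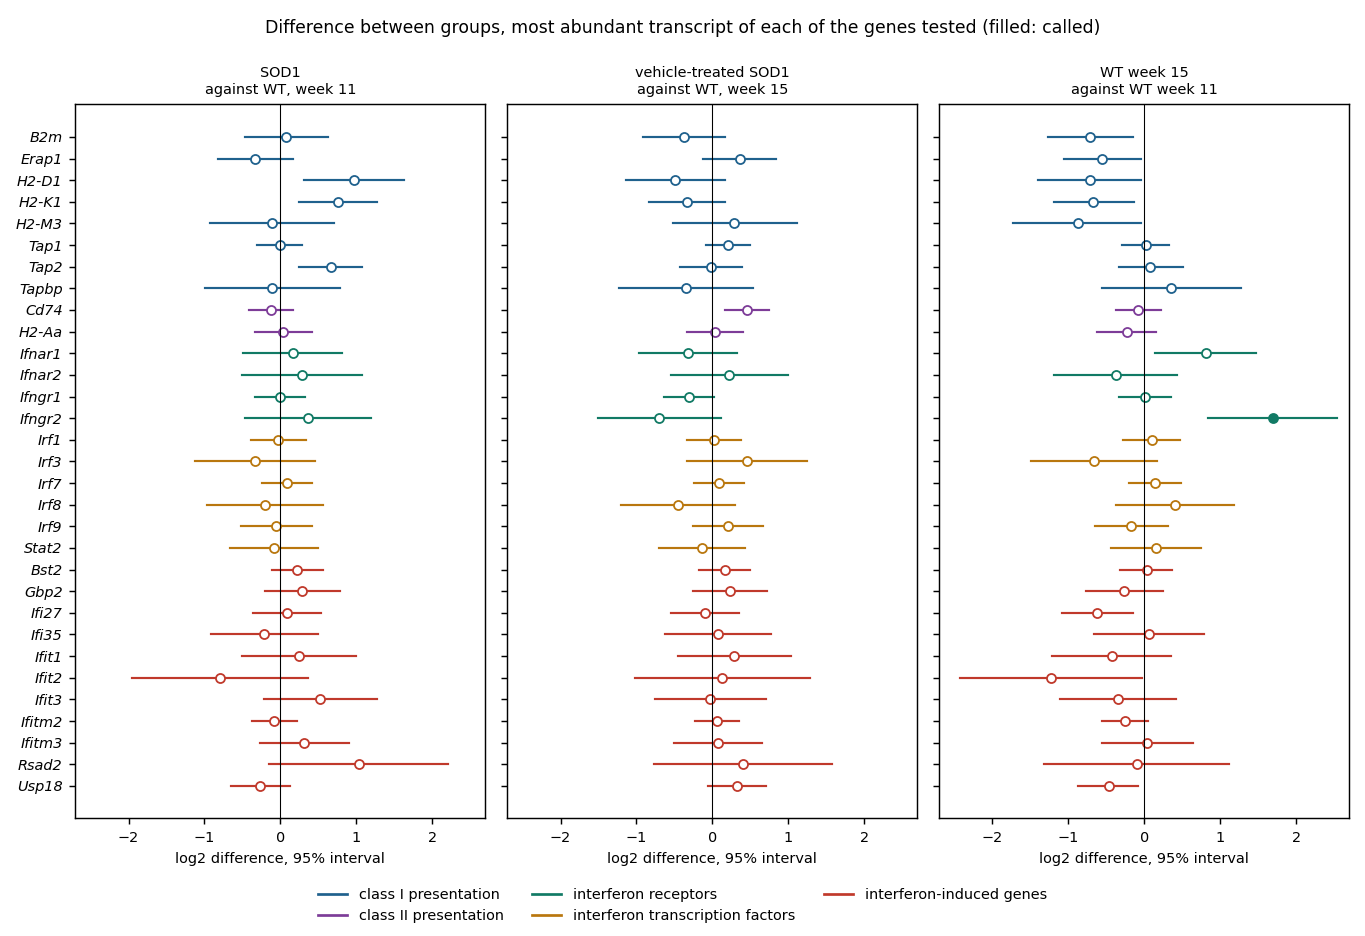
Log2 difference between groups (points, with 95% intervals as lines) of the most abundant transcript of each of the 31 genes tested, coloured by role, in 3 comparisons. Filled points mark called transcripts; none is filled in either SOD1 comparison, and Ifngr2 is the one filled point, 1.69 higher in WT mice of week 15 than of week 11.

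For the brightest H2-D1 transcripts, but not for all probe sets of the gene, the difference between SOD1 and WT was lower at week 15 than at week 11. Between week 15 (vehicle against WT) and week 11 (SOD1 against WT), 2 of the 54 transcripts were called in the test of the difference itself (3.70%, against 2.93% of all), both of H2-D1 and both lower (2.15% of all were called lower). For transcript 1 the effect was 1.46 lower (-1.46, SE 0.46, 95% interval -2.39 to -0.54, limma adjusted p = 0.0995), and for transcript 2 1.59 lower (-1.59, SE 0.47, limma adjusted p = 0.086). Over all 9 transcripts of H2-D1 this difference ranged from -1.59 to 0.43, with 4 over 0 and 5 under. Transcript 3 had means of 3.70 in WT and 4.46 in SOD1 mice of week 11, and of 3.02 in WT and 3.71 on vehicle at week 15. H2-K1 transcript 1 had a difference of -1.09 (limma adjusted p = 0.111) and Tap2 of -0.68 (0.208), and neither was called. Both H2-D1 calls lie next to the threshold. Leaving out 1 mouse at a time ended that of transcript 1 in 24 of 35 fits and that of transcript 2 in 13. Both were lost without WT mouse 6 of week 11 (-1.18 and -1.20, limma adjusted p = 0.211 and 0.171) and without the 3 arrays that stand apart (-0.93 for transcript 1, limma adjusted p = 0.364). The weeks differ in cohort as well as age, and only the SOD1 mice of week 15 bore a pump, which cannot be told apart. Neuron and motoneuron markers were called lower in the same test, among them Rbfox3 (-2.27, limma adjusted p = 0.0111), Ache (-2.01, 0.0396), Chodl (-1.78, 0.0628) and Uchl1 (-1.38, 0.0348). The Rbfox3 value is of a dimmer transcript, and the brightest one of that gene was not called. Mobp of oligodendrocytes (-2.08, limma adjusted p = 0.0746), Itm2a of endothelial cells (-1.87, 0.0796) and S100b of astrocytes (-0.73, 0.0903) were called lower too. Ctss of the microglia list was called higher (1.86, 0.0655). The part of these markers in the H2-D1 values was not tested. At 23 of 54 transcripts the 95% interval of this difference stayed within 2-fold (42.6%, against 45.2% of all).

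G-CSF and vehicle gave no difference past the test. Of the 54 transcripts, 0 were called between G-CSF-treated and vehicle-treated SOD1 mice (0.0383% of all were), 1 of 54 had an unadjusted p under 0.05 (8.3% of all), and Tukey's comparison called 0. The median difference was 0.25 over class I, 0.01 over class II, 0.15 over the receptors, -0.05 over the transcription factors and 0.07 over the induced genes. For 46 of the 54 transcripts (85.2%, against 74.3% of all) the 95% interval of the difference stayed within 2-fold either way. H2-D1 transcript 1 had 5.33, 6.31 and 6.96 on G-CSF, H2-K1 transcript 1 5.56, 6.42 and 6.73, B2m transcript 1 6.27, 8.19 and 8.39, and Cd74 3.40, 3.89 and 4.19, each overlapping the vehicle group. Against WT, G-CSF-treated mice had 0 of 54 transcripts called (1.13% of all) and 6 with an unadjusted p under 0.05 (12.7% of all), among them Cd74 at 0.30 (limma adjusted p = 0.374) and Gbp2, a guanylate-binding GTPase, at 0.50 (0.373). Tukey's comparison called 0 there as well, and the interval stayed within 2-fold for 41 of 54 transcripts (75.9%, against 72.3% of all).

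Between the 2 WT groups, week 15 against week 11, these genes were called at the same share as all transcripts in the main fit. The count depended on the fit. Of the 54 transcripts, 3 were called (5.56%, and 5.56% of all transcripts), 1 higher (3.29% of all) and 2 lower (2.26% of all). With array weights 13 of the 54 were called (12.2% of all), with only the 2 groups compared 9 (8.06%), and in Tukey's comparison 0 (1.51%). At an unadjusted p under 0.05 there were 18 of 54 (33.3%), against 17.4% of all. The interval stayed within 2-fold for 28 of 54 (51.9%, against 67.6% of all). The limit above on week, cohort and 18S RNA holds for each of these values.

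Ifngr2, the second chain of the interferon gamma receptor, rose. Its transcript 1 (1423557_at) had 3.66, 5.00 and 6.34 at week 11 and 6.29, 6.84 and 7.30 at week 15, so 5 of 7 older mice lay over all younger ones. The difference was 1.69 (SE 0.42, 95% interval 0.84 to 2.54, 3.23-fold, limma adjusted p = 0.0141). It kept between 1.40 and 1.94 when any 1 mouse was left out. It was not called with the 18S control as a covariate (1.26), a fit that called only 0.115% of all transcripts. Nor was it called in Tukey's comparison, which called 1.51% of all. Transcript 2 of the gene differed by 0.17 and did not pass the filter. The partner chain Ifngr1 had 6.43, 6.75 and 7.61 at week 11 and 6.69, 6.89 and 7.17 at week 15, with full overlap, and Ifnar1, of the type I receptor, differed by 0.81 (limma adjusted p = 0.175). Jak1, a kinase that serves both receptors, rose in 1 of its transcripts (2.31, limma adjusted p = 0.0102).

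In class I, 1 transcript each of B2m and H2-K1 fell. B2m transcript 2 (1452428_a_at) had 7.43, 7.54 and 7.88 at week 11 and 6.08, 6.41 and 7.46 at week 15, and was lower by 1.03 (-1.03, SE 0.34, 2.05-fold, limma adjusted p = 0.0751). Only 1 of 7 older mice reached the younger range. H2-K1 transcript 2 (1425336_x_at) had 5.25, 6.08 and 6.64 and then 4.16, 4.98 and 5.75, and was lower by 1.15 (-1.15, SE 0.40, 2.23-fold, limma adjusted p = 0.0978), with 5 of 7 older mice under all younger ones. Leaving out 1 mouse at a time ended the call of B2m in 10 of 35 fits and that of H2-K1 in 22. B2m transcript 1, with 7.70, 7.86 and 8.58 at week 15, differed by -0.71 (0.153), H2-D1 transcript 1 by -0.72 (0.248), H2-K1 transcript 1 by -0.67 (0.153) and H2-M3, which shows formylated peptides, by -0.88 (0.26), none called. The median over class I was -0.61, beside -0.05 over all genes. Tapbp had 6.34, 6.98 and 7.54 at week 11 and 6.98, 7.14 and 7.97 at week 15, higher by 0.35 with overlapping groups. The microglia list averaged 3.82 at week 11 and 3.54 at week 15, and the oligodendrocyte list 7.35 and 7.77. Of the marker genes, Mobp, Mal, Mbp, Cnp and Mag of oligodendrocytes, Slc1a2 of astrocytes (1.36, limma adjusted p = 0.00999), Snap25 of neurons (1.88, 8.47e-05) and Slc5a7 of motoneurons (1.79, 0.0123) were called higher at week 15. Uchl1 of neurons (-0.68, limma adjusted p = 0.0733), Slc18a3 of motoneurons (-0.88, 0.0674) and Ctss of microglia (-1.78, 0.00344) were called lower. The part of these markers in the class I values was not tested.

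Among the induced genes, 0 were called and the median was -0.26. Ifi27 had 9.73, 9.88 and 10.29 at week 11 and lay under that range in all 7 mice of week 15, 0.62 lower (-0.62, SE 0.23, limma adjusted p = 0.131). Ifit2, an antiviral RNA-binding protein, had 3.63, 5.60 and 7.38 at week 11 and 3.78, 3.96 and 5.22 at week 15, within the younger range. Over all 54 transcripts tested, not the induced genes alone, leaving out WT mouse 6 of week 11 raised the count called from 3 to 7. Of these 7, 6 were lower, and the share of all transcripts called in that fit is not given. Without the 3 arrays that stand apart the count was 7 too, with 7.99% of all called. With the 18S control as a covariate it was 0, with 0.115% of all called.

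**Figure D4:**
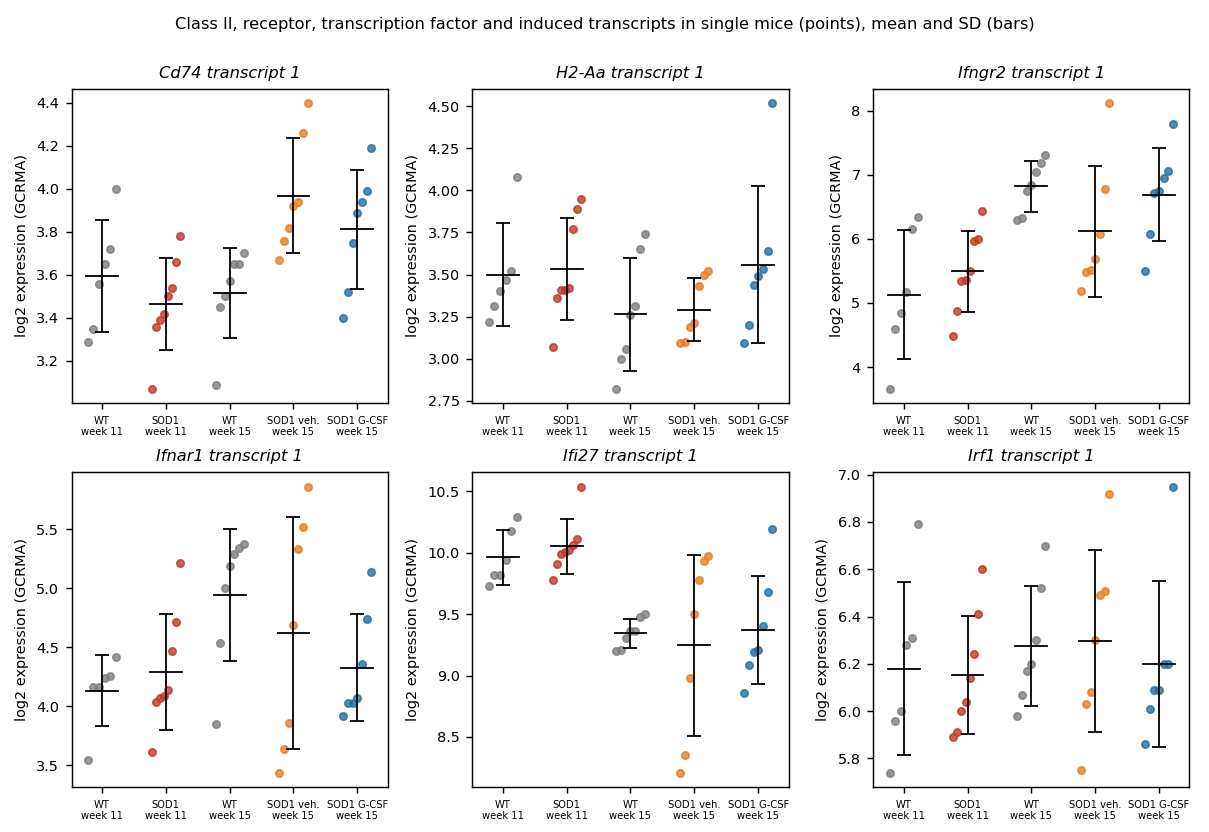
Log2 expression of Cd74, H2-Aa, Ifngr2, Ifnar1, Ifi27 and Irf1 in single mice (points) of the 5 groups, with the group mean and SD (bars). Of the vehicle-treated mice, 6 of 7 lie over all WT mice of week 15 for Cd74, and all 7 WT mice of week 15 lie under the WT mice of week 11 for Ifi27.

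Further genes of the 2 pathways, 26 of presentation and 57 of interferon signalling and induced genes, were taken as lists. Over all 14257 genes tested, the most abundant transcript was called in 244 at week 11 and in 1018 on vehicle against WT. It was called in 203 on G-CSF against WT, in 7 between G-CSF and vehicle and in 765 between the WT groups. List genes were counted with any transcript. Of 18 presentation genes tested, Ctss, the protease that trims the invariant chain, was higher on vehicle (1.89, limma adjusted p = 0.00208) and Pdia3, a chaperone of class I loading, lower (-1.49, 0.0675). The same 2 genes were called in G-CSF-treated mice against WT, 0 were called at week 11 and 0 between G-CSF and vehicle. Between the WT groups, Calr, the chaperone calreticulin, was higher at week 15 (0.78, limma adjusted p = 0.00328), and Ctss (-1.78, 0.00344) and Psmb10, an immunoproteasome subunit (-0.83, 0.0349), were lower. Of 42 interferon genes tested, Eif2ak2, the kinase PKR, was higher in SOD1 mice of week 11 (0.72, limma adjusted p = 0.0178). That value is of a dim transcript, with means of 3.06 in SOD1 and 2.33 in WT mice. Its WT mean lay under the intensity threshold of the filter (2.40), and the brightest Eif2ak2 transcript was not called. Herc6, a ligase for Isg15, was lower in SOD1 mice of week 11 (-0.68, limma adjusted p = 0.0744). On vehicle, Socs3, a brake on cytokine signalling, was higher (1.23, limma adjusted p = 0.0954) and Jak1 lower in 3 transcripts (-1.39, -1.99 and -2.27, adjusted p from 0.013 to 0.0327). No interferon gene of this list was called between G-CSF and vehicle or between G-CSF and WT. The median difference on vehicle was 0.13 over the further presentation genes and 0.08 over the further interferon genes, beside 0.04 over all genes.

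A single SOD1 mouse of week 11, mouse 8, stood apart in the induced genes. It was singled out after its values had been seen, so no test is given. Its array held the highest value of all 35 mice for 18 of the 54 transcripts (33.3%), against 4.60% of all 31352 transcripts, and the next mouse, WT mouse 6 of week 11, held 6 (11.1%, against 8.41% of all). The 18 belong to 10 genes, of which Rsad2, Ifit1, Ifit3, Ifitm3, Gbp2, Usp18 and Ifi27 are induced genes (7 of the 11 tested) and H2-K1, H2-D1 and B2m are of class I.

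Rsad2, the antiviral enzyme viperin, read 8.96 in mouse 8, against 3.37 to 5.82 in the other 7 mice of its group. Ifit3, of the IFIT family of antiviral RNA-binding proteins, read 7.13 against at most 4.86, and Ifit1 5.04 against at most 4.33. Gbp2 read 4.50 against at most 2.85 and Ifitm3, an entry blocker, 5.18 against at most 3.55. B2m transcript 1 read 9.75 against at most 9.21 and H2-K1 transcript 2 7.87 against at most 7.26. Of the 54 transcripts, 18 lay at least 1 log2 unit over the median of the other 7 mice (33.3%), against 3.11% of all transcripts.

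Some interferon genes outside the 38 were also high in this mouse. Of 42 further interferon genes, 9 (21.4%) lay at least 1 unit over the group's median in mouse 8, and 6 had their highest value of all mice there, namely Cxcl10, Gbp3, Ifih1, Igtp, Iigp1 and Lgals3bp. WT mouse 6 of week 11 had the highest value for 8 of these 42 genes. Cxcl10, a chemokine that interferon gamma induces, read 4.34 against at most 2.86, Gbp3 5.90 against at most 4.48 and Igtp, an immunity-related GTPase, 6.12 against at most 5.63. In class II, Cd74 read 3.36 and H2-Aa 3.41, beside medians of 3.50 and 3.42 in the other 7. The lymphocyte list read 2.85, as did its median in the other 7. The microglia list read 4.54 (3.55 to 4.29 in the other 7), the endothelial list 4.71 (4.08 to 4.60) and the 18S control 10.46 (9.38 to 11.22), and their part in these values was not tested.

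Mouse 8 was picked for its high values, so a fall of the induced genes on leaving it out is no separate evidence. The median difference between SOD1 and WT mice of week 11 over the 11 induced genes tested was 0.22 with it and 0.02 without it. When WT mouse 6 of week 11 was left out instead, that median was 0.31. For class I the median went from 0.03 to -0.06 without mouse 8, while H2-D1 transcript 1 stayed at 0.87 (limma adjusted p = 0.308). One G-CSF-treated mouse, mouse 2, also had a high Rsad2 value, 7.19 against 3.65 to 4.29 in its group, but was highest of all mice in only 2 of the 54 transcripts.

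**Figure D5:**
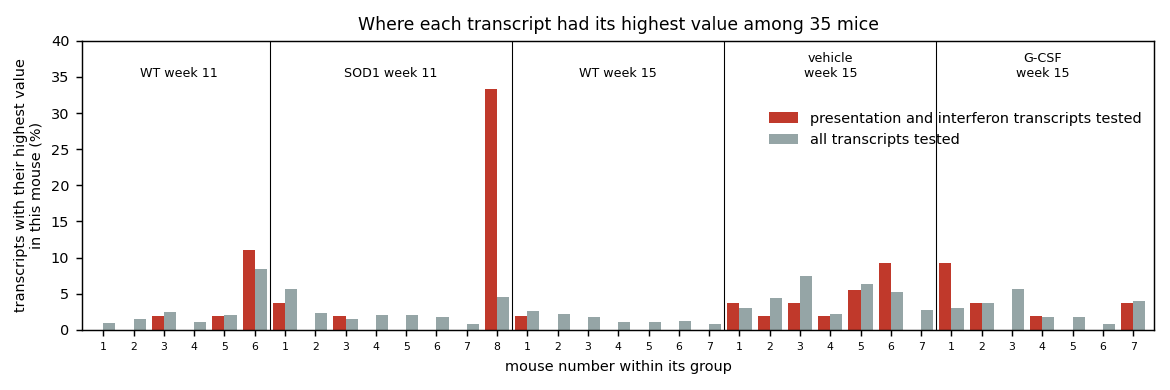
Share of transcripts that had their highest value of all 35 mice in each mouse (bars), for the 54 tested transcripts of the presentation and interferon genes (red) and for all 31352 tested transcripts (grey). Mouse 8 of the SOD1 mice of week 11 holds 33.3% of the former and 4.60% of the latter, and the next mouse holds 11.1% and 8.41%.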

How the data were processed

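Laser-dissected lumbar motoneurons of 35 mice were hybridized to Affymetrix arrays, 1 array per mouse, after repeated T7 amplification. The deposited values are log2 expression of 45101 probe sets, which the authors made by GCRMA with Affymetrix Expression Console. Neither version is stated in the sources used. Array medians lay between 3.19 and 3.47. Precision is limited by the number of arrays. Gene names come from GEO's platform annotation. Of the probe sets, 34958 name 1 gene, 932 several and 9211 none.

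Groups come from the labels. The filter of the methods (over the 20th centile on at least 4 arrays, SD at or over the 30th centile, 0.241) kept 31352 transcripts. limma 3.58.1 in R 4.3.3 was fitted over all 5 groups (3.54 prior degrees of freedom), with Benjamini-Hochberg adjustment over all 31352 within each of 6 comparisons. Calls needed p under 0.05 before and under 0.1 after adjustment, and at least a 1.5-fold change. The fit was tested on simulated data. The labels do not say whether replicate mice shared a litter.

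The genes and lists were chosen with earlier results of these data known. Each gene is represented by its kept transcript with the highest mean, and transcripts are numbered by mean level. Lowest, median and highest values are given for the genes called in any comparison and the 2 most abundant of each role, other genes by ranges and counts, and called genes of the other lists by name. Tap2, Rsad2 and the other genes given for single mice were named after their values were seen. Python 3.11.15 with pandas 2.3.3 and matplotlib 3.10.9 made tables and figures. Alternatives were another test, other filters, thresholds, a floor, normalization, samples in the fit, a replicate block, array weights, an 18S covariate, and leaving out arrays.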

Additional observations from a re-analysis of the deposited data

Results flagged for a closer look

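Of 175 sets of values (35 genes in 5 groups), 34 (19.4%) held 1 mouse far from the rest of its group, where chance gives about 1 in 20. The share over all genes under the same rule was not counted, so no excess particular to these genes is shown. The largest share fell on SOD1 mouse 8 of week 11, with 8 genes. They are Rsad2 (8.96, the other 7 mice from 3.37 to 5.82), Ifit3 (7.13, others 3.94 to 4.86), Ifitm3 (5.18, others 2.50 to 3.55), Ifi35 (5.07, others 2.80 to 3.61), Gbp2 (4.50, others 2.17 to 2.85), Ifi27 (10.54, others 9.78 to 10.11), Usp18 (3.65, others 2.52 to 3.02) and Tap1 (3.54, others 2.77 to 3.11).

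WT mouse 6 of week 11 was low for H2-D1 (5.78) and Ifnar1 (3.55) and high for Ifit1 (4.79), Ifi35 (4.90), H2-Aa (4.08) and H2-Ab1 (3.68). SOD1 mouse 1 of week 11 was low for Tapbp (4.53) and high for H2-Eb1 (5.29) and Bst2 (4.72), and SOD1 mouse 7 was low for Ifngr1 (6.40). Among WT mice of week 15, mouse 1 was high for Irf8 (6.39, the others from 2.51 to 3.58), mouse 2 low for Tap2 (3.79) and high for Ifitm3 (3.49), mouse 3 low for Cd74 (3.09) and high for Ifit1 (3.03), mouse 5 high for Usp18 (3.31) and mouse 6 low for Irf3 (5.14). Vehicle-treated mouse 1 was high for Erap1 (4.65, the others from 2.42 to 2.90).

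Of the G-CSF-treated mice, mouse 1 was high for H2-Aa (4.52), H2-Eb1 (5.42) and Irf1 (6.95), mouse 2 for H2-M3 (6.87) and Rsad2 (7.19, the others from 3.65 to 4.29), and mouse 4 for Usp18 (3.60) and Gbp2 (3.69), while mouse 3 was low for B2m (6.27, the others from 7.94 to 8.39).

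For 2 transcripts of H2-D1 the difference between SOD1 and WT was lower at week 15 than at week 11 in the test of that change, by -1.46 for transcript 1 and -1.59 for transcript 2 (limma adjusted p = 0.0995 and 0.086). Over all 9 transcripts of the gene the change ranged from -1.59 to 0.43, with 4 over 0.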

How the results depend on the processing

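Counts of called transcripts of the 38 genes were small, so few of them moved a count far. For SOD1 against WT at week 11 it was 0, but 1 with values floored at the 20th centile, which called 1.34% of all transcripts. It was 5, all higher, with array weights, which called 3.55% of all transcripts. For vehicle against WT it was 0, and 1 (Cd74) with no minimum fold change, which called 7.36% of all. For the difference between the weeks it was 2, and 1 with no filter (2.25% of all called). It was 0 with quantile normalization once more (1.05%), an adjusted p under 0.05 (0.443%), the replicate block (1.98%) and the 18S covariate (2.11%). The fit that left out WT mouse 6 of week 11 and vehicle mice 3 and 5 gave 0 as well (0.644%). Between the WT groups it was 3, and 0 in ANOVA with Tukey's comparison, adjusted again over all transcripts (1.51% of all called). It was 1 at an adjusted p under 0.05 (3.7%), 9 with only the groups compared (8.06%) and 6 with the replicate block (5.71%). With array weights it was 13 (12.2%), without the 3 arrays 7 (7.99%), and with the 18S covariate 0. The 18S covariate goes with the week, and its fit called 0.115% of all. Tukey's comparison cannot give the difference between the weeks.

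Leaving out 1 mouse at a time gave 0 to 3 calls for SOD1 against WT at week 11 (3 without SOD1 mouse 1 or mouse 6 and 2 without WT mouse 1), 0 to 1 for vehicle against WT, 0 to 0 for both G-CSF comparisons, 0 to 4 for the difference between the weeks (4 without WT mouse 3 of week 11, and 0 without any of SOD1 mice 2, 3, 4, 7 and 8 and WT mice 5 and 6 of week 11, vehicle mice 3 and 5 and WT mice 3, 4, 6 and 7 of week 15) and 1 to 7 between the WT groups (7 without WT mouse 6 of week 11, and 1 without any of WT mice 1 to 5 of week 11 and WT mice 1, 3 and 4 of week 15). The H2-D1 calls of the difference were lost in 24 of 35 such fits for transcript 1 and 13 for transcript 2, that of B2m transcript 2 in 10, that of H2-K1 transcript 2 in 22 and that of Ifngr2 in 0. The share of all transcripts called in these fits is not given, and the cause was not tested. Of 46 differences of single transcripts with an unadjusted p under 0.05, 3 changed sign under an alternative, all between the WT groups with the 18S covariate, namely H2-D1 transcript 3 (0.15), H2-K1 transcript 4 (0.26) and Usp18 (0.01).

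Of 66 pairs of arrays with the same replicate number, 1 correlated over 0.1 (median -0.0025), so the numbers do not pair the mice. Dim genes such as Gbp2 and H2-Ab1 lie close to the 20th centile of all values, and 6 to 8 mice a group limit the precision.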

Other observations

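Probe sets that also name other genes were kept out of the tests. The brighter one of H2-T23, a class I heavy chain, reads 6.80 ± 0.45 (SD, n = 6) in WT and 7.05 ± 0.30 (n = 8) in SOD1 mice of week 11, and 5.68 ± 0.61 in WT, 6.59 ± 0.58 on vehicle and 6.66 ± 1.35 on G-CSF at week 15 (n = 7 each). Its WT values of week 15 run from 4.91 to 6.82 and those on vehicle from 6.02 to 7.39. The probe set of Isg15, a ubiquitin-like protein, reads 3.57 to 3.87 in the means of the 5 groups and 4.14 in SOD1 mouse 8 of week 11, within its group's range of 3.39 to 4.35. These values are from probe sets shared with other genes and were not tested.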
